A study of Mus musculus with 8 samples.

Results

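Genes that mark and build the lining of blood vessels were followed in heart RNA, 10 in all: the adhesion and junction genes Pecam1, Cdh5, Esam and Cldn5, the Tie receptors Tie1 and Tek, the BMP co-receptor Eng and its partner Acvrl1, and the secreted factor Egfl7 and the sialomucin Emcn. They were chosen by symbol, with earlier results of these data known. Each of the 10 was matched through its Entrez number to 1 of 23282 rows of the deposited table of read counts. The libraries came from 4 AE3-null and 4 wild-type hearts of male FVB/N mice at 4 months of age. AE3-null mice carry a null allele of Slc4a3, which encodes AE3, a chloride/bicarbonate exchanger of heart muscle; the labels name no cell type that the allele is restricted to. Neither group is labelled with a treatment or any further allele. The design gives n = 4 for each genotype, and p-values cover the variation among these 8 hearts.

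Endothelial cells hold together through VE-cadherin (Cdh5), which pairs with itself across the junction, together with the tight junction protein claudin-5 and the immunoglobulin-type adhesion molecules PECAM-1 and ESAM. Angiopoietins act on the receptor TIE2 (Tek), with TIE1 as its partner, to keep vessels quiet and closed. Endoglin presents the circulating ligands BMP9 and BMP10 to the receptor ALK1 (Acvrl1), and human mutations of either gene cause hereditary haemorrhagic telangiectasia. The heart is dense in capillaries, so RNA of the whole organ carries these transcripts beside a large excess of muscle RNA.

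Library totals ran from 9133628 to 27078351 counts in AE3-null hearts and from 14875281 to 19080858 in wild-type hearts. Slc4a3 was at 31.5 to 34.6 CPM in AE3-null and 378 to 389 CPM in wild-type libraries, where CPM is the usual depth-scaled read count, here after TMM scaling of library sizes, so every library matched its label. Heart muscle markers were abundant in every library. The sum of 10 of them was 97434 to 104564 CPM in AE3-null and 97508 to 104686 CPM in wild-type hearts. Of these 10, Pln, which encodes the calcium pump regulator phospholamban, and Tnnt2, cardiac troponin T, rose (log2 0.14 and 0.12, edgeR adjusted p 0.0116 and 0.0423), 5 had negative log2 fold changes and the median was -0.01. The call of Pln held in all 16 alternatives that tested it and that of Tnnt2 in 8 of 16. On the second principal component, wild-type replicate 3 scored -21.2 and the other 7 libraries -1.17 to 8.77. Several results are also given without it.

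The bases upstream of the annotated starts are shown for the 4 genes whose RefSeq window lies outside any transcribed part of the gene, because both called and uncalled genes of the group are among them. Each window holds the 250 bases before the start on the gene's own strand, from RefSeq on GRCm38.p6. Capitals mark CAGGAA or CCGGAA on either strand, letters that ETS factors, the main class of endothelial regulators, can bind.
Eng (called, chr2:32646345-32646594, strand +): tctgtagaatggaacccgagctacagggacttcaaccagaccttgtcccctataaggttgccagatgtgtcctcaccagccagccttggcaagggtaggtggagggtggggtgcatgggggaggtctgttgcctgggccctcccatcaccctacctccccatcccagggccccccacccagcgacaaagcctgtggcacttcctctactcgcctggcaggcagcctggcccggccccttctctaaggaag
Tie1 (not called, chr4:118489850-118490099, strand -): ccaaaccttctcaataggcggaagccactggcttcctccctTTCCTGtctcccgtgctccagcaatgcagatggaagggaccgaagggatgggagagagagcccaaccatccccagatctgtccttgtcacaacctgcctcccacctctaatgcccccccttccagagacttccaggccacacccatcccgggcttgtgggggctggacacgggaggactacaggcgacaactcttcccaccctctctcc
Cldn5 (not called, chr16:18776597-18776846, strand +): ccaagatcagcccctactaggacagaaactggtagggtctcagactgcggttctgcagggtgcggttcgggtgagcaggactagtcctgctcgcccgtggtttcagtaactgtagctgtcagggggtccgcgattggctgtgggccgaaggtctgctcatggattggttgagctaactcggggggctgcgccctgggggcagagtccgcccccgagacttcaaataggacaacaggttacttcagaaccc
Egfl7 (not called, chr2:26580833-26581082, strand +): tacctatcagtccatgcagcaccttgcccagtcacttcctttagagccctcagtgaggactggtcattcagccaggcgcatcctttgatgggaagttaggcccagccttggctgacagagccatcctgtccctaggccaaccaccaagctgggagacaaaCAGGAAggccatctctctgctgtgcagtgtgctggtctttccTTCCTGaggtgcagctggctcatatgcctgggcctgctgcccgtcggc

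RefSeq windows were on hand for 6 of the 10 genes, 8 windows in all because Egfl7 has several starts. Pecam1, Cdh5, Esam and Acvrl1 had no window, so Eng is the only called gene with one. The ETS letters occurred in 5 of these 8 windows, belonging to Egfl7, Emcn, Tek and Tie1, and in 35.1% of 32851 mouse windows of the same length. Of the 5 windows with the letters, those of Emcn and Tek and another window of Egfl7 lay partly or wholly inside the gene. Among the 4 windows shown, Tie1 and Egfl7 held the letters, while Eng and Cldn5 held none. The GATA letters AGATAA and the SOX letters ACAATG, read on both strands, occurred in none of the 8 windows, against 9.99% and 10.7% of all windows. A match describes the letters of the window and is not a measured binding site.

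Of the 10 genes, 4 were called lower in AE3-null hearts. Pecam1 fell by 16.6%, Eng fell by 15.4%, Acvrl1 fell by 13.0% and Esam fell by 12.9% in edgeR's quasi-likelihood test at an adjusted p under 0.05 over all 14136 genes tested. All 10 genes passed the filter on low counts and had negative log2 fold changes, between -0.49 and -0.08 with a median of -0.20, while the median of all tested genes was -0.0018. Of all tested genes 6.47% were called, 3.31% lower and 3.16% higher in AE3-null hearts, and 50.5% had a negative log2 fold change. With total counts in place of TMM the split was 528 higher and 361 lower, against 447 and 468, and the same 4 members were called. No member was called higher. The count of 4 fell to 1 without AE3-null replicate 4 and to 2 without AE3-null replicate 1 or wild-type replicate 4, and it was 5 without wild-type replicate 3. In 3 members every AE3-null library lay below every wild-type library, and in none did every AE3-null library lie above, against 6.15% and 6.1% of all tested genes. In bulk tissue, fewer endothelial cells and less RNA per cell cannot be told apart.

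**Figure D1:**
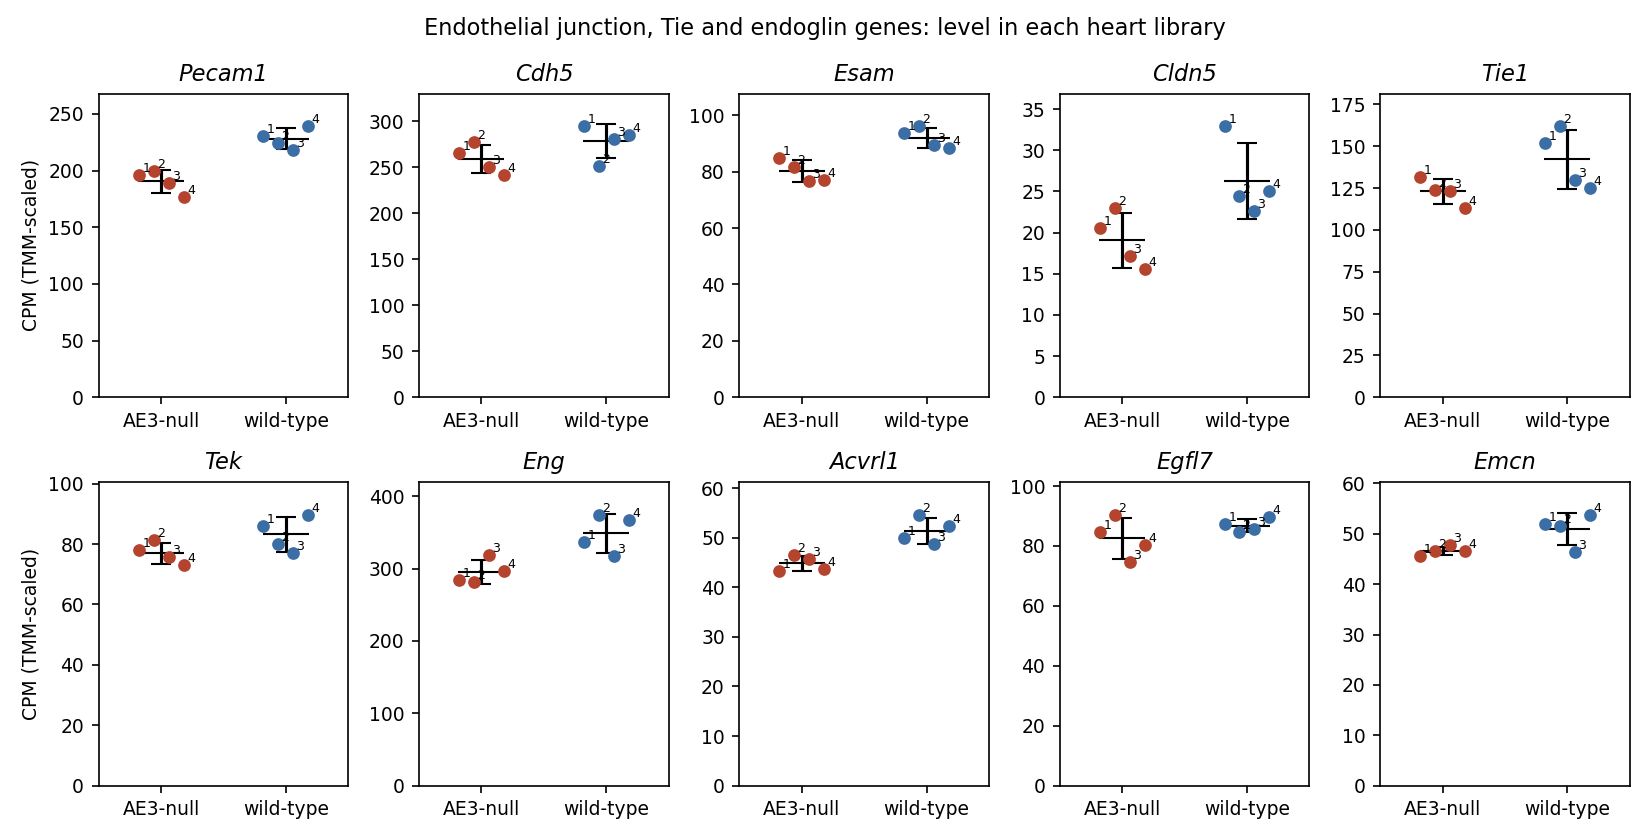
Level of each of the 10 genes in CPM (y axis, from 0) in the 4 AE3-null (left, red) and 4 wild-type (right, blue) heart libraries. Points are libraries numbered by replicate, and black bars are the mean and SD. The AE3-null points of Pecam1, Esam and Acvrl1 lie below every wild-type point, whereas the groups overlap in the other 7 genes.

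Among the junction genes, Pecam1 (Entrez 18613) encodes the platelet endothelial adhesion molecule that sits at cell borders and senses flow. Pecam1 was at 196, 199.5, 189 and 177 CPM in AE3-null replicates 1 to 4, against 231, 225, 218 and 239 CPM in wild-type replicates 1 to 4. The highest AE3-null library was below the lowest wild-type library. Pecam1 averaged 190.4 ± 9.87 CPM in AE3-null and 228 ± 9.01 CPM in wild-type hearts (SD, n = 4 each), a log2 fold change of -0.26 (SE 0.0426, edgeR adjusted p 0.00163). Its call held in all 17 alternatives of the fit, with adjusted p-values up to 0.00955.

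Esam (Entrez 69524) encodes an adhesion molecule of endothelial tight junctions and platelets. Esam was at 84.9, 81.5, 76.7 and 77.2 CPM in AE3-null replicates 1 to 4, against 93.7, 96.2, 89.3 and 88.5 CPM in wild-type replicates 1 to 4. The groups did not overlap. The log2 fold change of Esam was -0.20 (SE 0.0453, edgeR adjusted p 0.0150). Its adjusted p was 0.0589 without AE3-null replicate 3 and 0.0653 without AE3-null replicate 4.

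Cdh5 (Entrez 12562) encodes VE-cadherin, the core of the adherens junction. Cdh5 was at 266, 277, 251 and 242 CPM in AE3-null replicates 1 to 4, against 295, 252, 281 and 285 CPM in wild-type replicates 1 to 4. The groups overlapped, because wild-type replicate 2 lay below 2 of the AE3-null libraries. The difference in Cdh5 was log2 -0.11 (SE 0.0513; edgeR adjusted p 0.257), with a 95% interval of -0.21 to 0.0044, and it was not called in any of 17 alternatives.

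Cldn5 (Entrez 12741) encodes claudin-5, the main endothelial claudin of the tight junction. Cldn5 was at 20.6, 22.9, 17.2 and 15.5 CPM in AE3-null replicates 1 to 4, against 32.9, 24.4, 22.6 and 25.04 CPM in wild-type replicates 1 to 4. The groups overlapped in a single pair, AE3-null replicate 2 above wild-type replicate 3, and wild-type replicate 1 lay well above all others. Cldn5 had the largest fold change of the 10 genes and the largest spread, at log2 -0.49 (SE 0.154, 95% interval -0.85 to -0.14) with an edgeR adjusted p of 0.109. The coefficient of variation was 17.5% in AE3-null and 17.4% in wild-type hearts, against at most 8.14% and 12.4% in the other 9 genes. Cldn5 was called lower by DESeq2 (adjusted p 0.00821), by limma voom (0.0316) and by edgeR without robust moderation (0.0425). Without wild-type replicate 1 its log2 fold change was -0.37 (adjusted p 0.106).

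**Figure D2:**
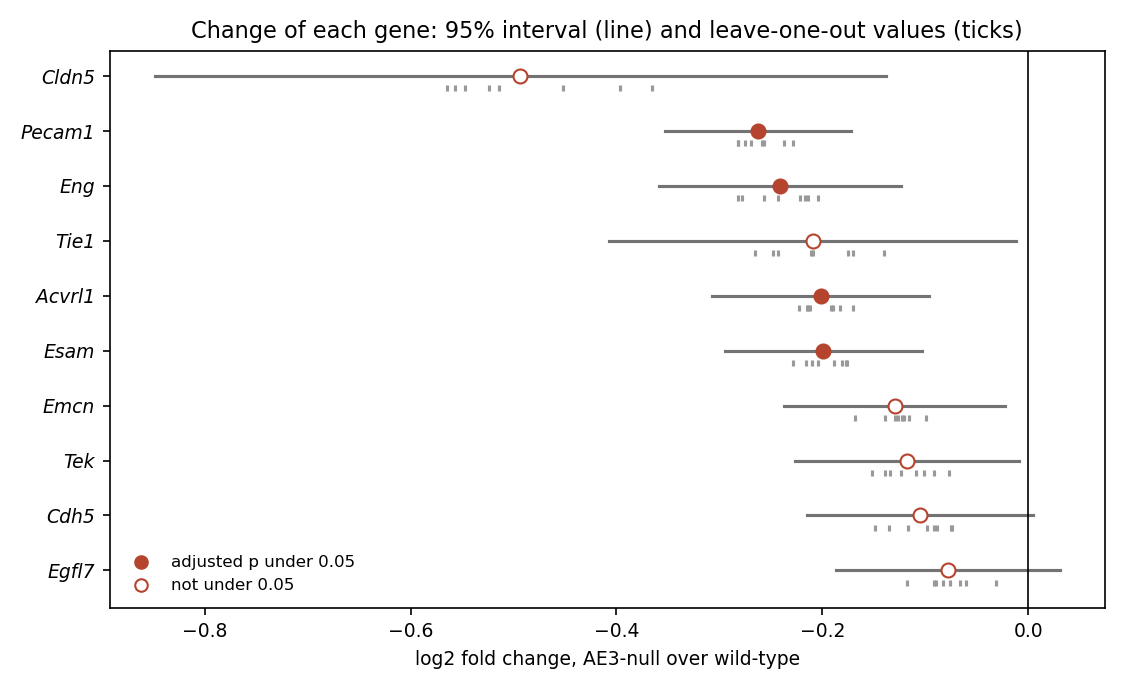
Log2 fold change of each gene, AE3-null over wild-type (x axis), in order of size. Circles are estimates, filled where the edgeR adjusted p is under 0.05, lines are 95% intervals, and grey ticks are the estimates with 1 library left out. Every tick of all 10 genes lies below 0, and 4 genes are filled.

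Of the Tie receptors, Tek (Entrez 21687) encodes TIE2, which binds angiopoietins. Tek was at 77.9, 81.2, 75.7 and 72.9 CPM in AE3-null replicates 1 to 4, against 86.1, 80.2, 76.9 and 89.8 CPM in wild-type replicates 1 to 4. The groups overlapped. The log2 fold change of Tek came to -0.12 (SE 0.0515; edgeR adjusted p 0.197), and without wild-type replicate 3 it was -0.15 (adjusted p 0.0503). Without wild-type replicate 4 it was -0.08 (adjusted p 0.500).

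Tie1 (Entrez 21846) encodes the receptor that has no well-defined ligand of its own and modulates TIE2. Tie1 was at 132, 124, 123 and 113 CPM in AE3-null replicates 1 to 4, against 152, 162, 129.8 and 125 CPM in wild-type replicates 1 to 4. Wild-type replicates 1 and 2 were above every AE3-null library, and wild-type replicates 3 and 4 fell within the AE3-null range. Tie1 had a log2 fold change of -0.21 (SE 0.0867, edgeR adjusted p 0.211). It was -0.14 without wild-type replicate 2.

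The ligands and the phosphatase of the Tie system did not share one direction. Of Angpt1, Angpt2, Angpt4 and Ptprb, 3 were tested and none was called by edgeR or limma voom (2 at an unadjusted p under 0.05), while DESeq2 called 1. Angpt1, the agonist of TIE2 made by cells around the vessel, averaged 80.3 ± 6.66 CPM in AE3-null and 66.1 ± 7.02 CPM in wild-type hearts (SD, n = 4 each), with a log2 fold change of 0.27 (edgeR adjusted p 0.0651). Angpt1 was called higher by DESeq2 (adjusted p 0.0137), and by edgeR without AE3-null replicate 4 (0.0220) or wild-type replicate 1 (0.0101). Ptprb, the vascular phosphatase that acts on TIE2 and VE-cadherin, averaged 243 ± 6.33 CPM in AE3-null and 259 ± 4.43 CPM in wild-type hearts, with a log2 fold change of -0.09 (edgeR adjusted p 0.121). The 4 AE3-null libraries of Ptprb lay below the 4 wild-type libraries, as they did for 6.15% of all tested genes. Leaving out wild-type replicate 3 gave 1 called lower in this list, which was not Ptprb (edgeR adjusted p 0.141). With all libraries Angpt2 had the lowest log2 fold change of the 3 tested, -0.36, and was not called.

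Both receptor genes of the endoglin system fell. Eng (Entrez 13805) encodes endoglin, and its counts were at 285, 281, 319 and 296 CPM in AE3-null replicates 1 to 4, against 337, 375, 317 and 368 CPM in wild-type replicates 1 to 4. Only wild-type replicate 3 lay inside the AE3-null range. The log2 fold change of Eng was -0.24 (SE 0.0544, edgeR adjusted p 0.0189) and, without wild-type replicate 3, -0.28 (adjusted p 0.000968). Its call was lost without AE3-null replicate 1 (0.0638), AE3-null replicate 2 (0.0622), AE3-null replicate 4 (0.0630) or wild-type replicate 4 (0.0724). Fpgs overlaps Eng on the other strand in the annotation and held 118 to 293 counts a library, against 2611 or more for Eng. Since the strand setting of the counting is not given, reads in the shared stretch cannot be assigned with certainty.

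Acvrl1 (Entrez 11482) encodes ALK1, the endothelial receptor for BMP9 and BMP10. Acvrl1 was at 43.3, 46.4, 45.8 and 43.7 CPM in AE3-null replicates 1 to 4, against 49.9, 54.7, 48.8 and 52.3 CPM in wild-type replicates 1 to 4. The groups did not overlap. The log2 fold change of Acvrl1 was -0.20 (SE 0.0498, edgeR adjusted p 0.0227). Its call was lost without AE3-null replicate 1 (0.0812), AE3-null replicate 4 (0.0834), wild-type replicate 2 (0.0699) or wild-type replicate 4 (0.0794).

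Among the partner receptors of endoglin and ALK1, Bmpr2 fell and the other 7 tested were not called. Bmpr2, the type II receptor that signals with ALK1, averaged 31.8 ± 0.873 CPM in AE3-null and 41.3 ± 2.36 CPM in wild-type hearts (SD, n = 4 each), with a log2 fold change of -0.38 (SE 0.0534, edgeR adjusted p 0.000555). Its call held in all 17 alternatives. Bmpr2 lies on chromosome 1, as does the targeted gene Slc4a3, and whether this bears on its fall was not tested. The list had a median log2 fold change of -0.09.

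The ligands of this pathway were not called. Of 7 tested BMP and TGF-beta ligands none was called by edgeR, DESeq2 or limma voom, and 1 had an unadjusted edgeR p under 0.05. Tgfb2 averaged 19.98 ± 1.87 CPM in AE3-null and 23.6 ± 2.81 CPM in wild-type hearts (log2 -0.25, edgeR adjusted p 0.106). Bmp2 averaged 2.62 ± 0.471 CPM in AE3-null and 2.08 ± 0.303 CPM in wild-type hearts (log2 0.36, edgeR adjusted p 0.258). Gdf2, which encodes BMP9 and is a liver gene, did not pass the filter on low counts.

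Of 14 SMADs and BMP target genes 1 rose and 1 fell, and the median log2 fold change was -0.0025. Smad9, the least abundant of the BMP-activated SMADs and itself a BMP target, averaged 6.61 ± 0.367 CPM in AE3-null and 4.83 ± 0.470 CPM in wild-type hearts (log2 0.46, edgeR adjusted p 0.0162). Smurf2, a ubiquitin ligase that marks SMADs and their receptors for breakdown, averaged 81.9 ± 4.03 and 100.3 ± 9.77 CPM in AE3-null and wild-type hearts (log2 -0.29, edgeR adjusted p 0.0157). Leaving out AE3-null replicate 4 ended both calls (adjusted p 0.0644 for Smad9 and 0.0580 for Smurf2), as did leaving out wild-type replicate 4 (0.0692 and 0.0571). The classical endothelial BMP targets Id1 and Id3 had log2 fold changes of -0.11 and 0.03 (edgeR adjusted p 0.384 and 0.798).

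Egfl7 and Emcn were not called. Egfl7 (Entrez 353156) encodes a secreted endothelial matrix protein and carries a microRNA, miR-126a, in an intron. Egfl7 was at 84.6, 90.5, 74.6 and 80.4 CPM in AE3-null replicates 1 to 4, against 87.2, 84.6, 85.7 and 89.7 CPM in wild-type replicates 1 to 4. AE3-null replicate 2 was the highest and AE3-null replicate 3 the lowest of all 8 libraries. Its log2 fold change of -0.08 (SE 0.0514, edgeR adjusted p 0.414, 95% interval -0.19 to 0.03) was the smallest of the 10 genes, and it was -0.03 without AE3-null replicate 3. The mature strand of the microRNA from RefSeq on GRCm38.p6 is shown because Egfl7 RNA is its source, with the seed in capitals.
mmu-miR-126a-3p (chr2:26591402-26591423, strand +): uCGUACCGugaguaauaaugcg

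The deposited row of the microRNA gene Mir126a held 9 to 17 counts a library. Such reads give no level of the mature strand.

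Emcn (Entrez 59308) encodes endomucin, a sialomucin of capillary and venous endothelium that limits leukocyte adhesion. Emcn was at 45.6, 46.5, 47.7 and 46.6 CPM in AE3-null replicates 1 to 4, against 51.8, 51.6, 46.4 and 53.8 CPM in wild-type replicates 1 to 4. The other wild-type libraries lay above every AE3-null library, while wild-type replicate 3 lay within the AE3-null range. Emcn differed by log2 -0.13 (SE 0.0507; edgeR adjusted p 0.146). Without wild-type replicate 3 it was -0.17 and called (adjusted p 0.0246).

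Levels were also set against each other after division by exon length, taken from GENCODE on another build than that of the files, so the order is approximate. Eng was the most abundant, at 82.7 ± 4.70 CPM per kb in AE3-null and 97.7 ± 7.56 CPM per kb in wild-type hearts (SD, n = 4 each). Cdh5 followed at 64.8 ± 3.89 and 69.6 ± 4.64 CPM per kb, and Pecam1 at 46.1 ± 2.39 and 55.2 ± 2.18 CPM per kb, in the same order of groups. Acvrl1 was the lowest, at 11.8 ± 0.404 CPM per kb in AE3-null and 13.5 ± 0.689 CPM per kb in wild-type hearts. Endoglin RNA was thus far more abundant than that of its partner ALK1 in both genotypes.

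The order of the 10 genes was Eng, Cdh5, Pecam1, Egfl7, Esam, Tie1, Emcn, Tek, Cldn5 and Acvrl1 in AE3-null hearts. In wild-type hearts it was Eng, Cdh5, Pecam1, Esam, Egfl7, Tie1, Emcn, Cldn5, Tek and Acvrl1. The pairs that traded places, Esam with Egfl7 and Cldn5 with Tek, had overlapping ranges per kb in both genotypes. Among other neighbours in the order, Pecam1 overlapped Egfl7 and Cldn5 overlapped Acvrl1 in AE3-null hearts, and Emcn overlapped Cldn5 in wild-type hearts. Overlaps between genes further apart in the order are not listed.

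Whether members changed by different amounts was tested on 5 ratios of counts within each library, which do not depend on library scaling. The count ratio of Tie1 to Tek averaged 1.60 ± 0.0738 in AE3-null and 1.72 ± 0.258 in wild-type hearts (SD, n = 4 each), with ranges of 1.53 to 1.69 and 1.40 to 2.02, and a two-sided exact permutation p of 0.543. The ratio of Eng to Acvrl1 averaged 6.59 ± 0.389 in AE3-null and 6.79 ± 0.227 in wild-type hearts (exact permutation p 0.514). Neither receptor pair differed in its balance beyond the spread between libraries.

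The ratio of Cldn5 to Cdh5 averaged 0.0732 ± 0.00844 in AE3-null and 0.0942 ± 0.0134 in wild-type hearts, a log2 difference of -0.36 (two-sided exact permutation p 0.0571). The ranges overlapped, at 0.0642 to 0.0828 in AE3-null and 0.0806 to 0.112 in wild-type hearts. The ratio of Esam to Pecam1 averaged 0.421 ± 0.0163 in AE3-null and 0.403 ± 0.0245 in wild-type hearts (exact permutation p 0.257). That of Emcn to Egfl7 averaged 0.568 ± 0.0546 and 0.587 ± 0.0306 in the same order (exact permutation p 0.571). Adjusted over the 5 ratios, the p-values were 0.286 for Cldn5 to Cdh5 and 0.571 for each of the others. The smallest two-sided p that 4 against 4 libraries allow is 0.0286, so 1 ratio alone could not pass the adjustment, and these values do not show that the pairs changed alike.

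**Figure D3:**
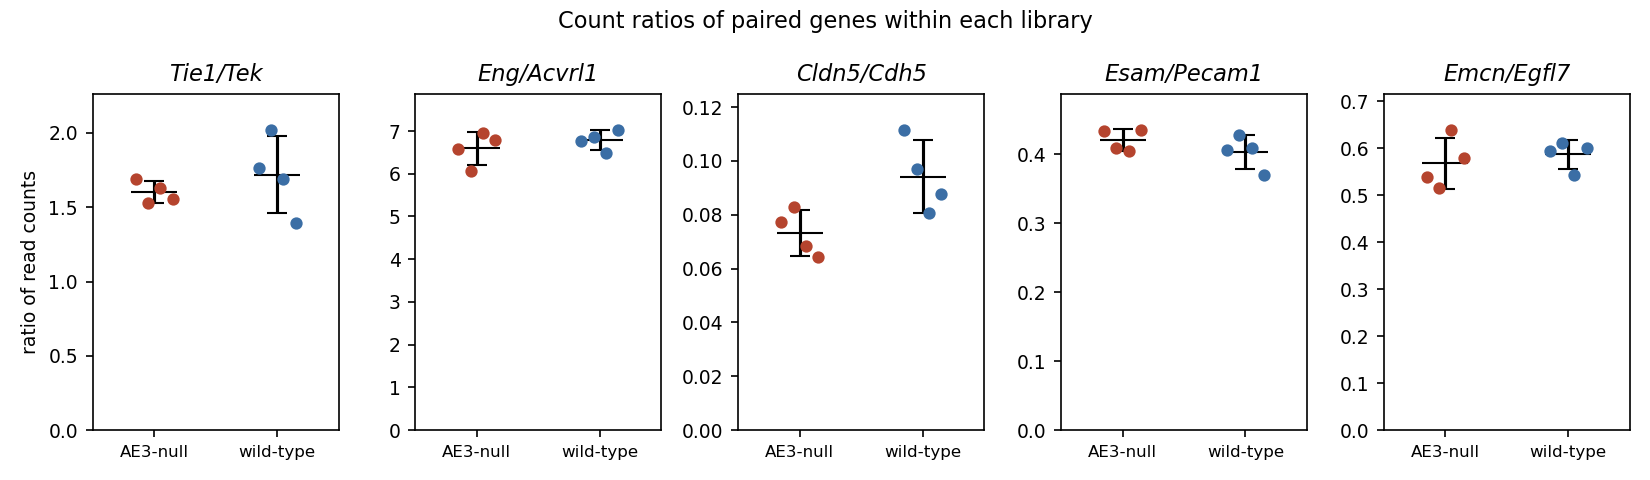
Ratio of read counts of 2 genes within each library (y axis, from 0), for 5 pairs, in AE3-null (left, red) and wild-type (right, blue) hearts. Points are libraries and black bars the mean and SD. The Cldn5 to Cdh5 points of AE3-null hearts lie mostly below those of wild-type hearts, and the groups overlap in every panel.

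A separate list of 19 endothelial markers also tended lower. Like the 10 genes, it was chosen with earlier results of these data known, so it is not independent support. Of the 19 markers, 18 had negative log2 fold changes, against 50.5% of all tested genes. In this list 5 fell, against 3.31% of all tested genes, no gene rose, and the median was -0.12. Kdr, the main VEGF receptor, averaged 255 ± 13.4 CPM in AE3-null and 333 ± 39.4 CPM in wild-type hearts (SD, n = 4 each; log2 -0.39, edgeR adjusted p 0.0262). Flt1, a VEGF receptor that can act as a decoy, had a log2 fold change of -0.18 (edgeR adjusted p 0.0277), the endothelial nitric oxide synthase Nos3 one of -0.20 (0.0209) and the proton-sensing receptor Gpr4 one of -0.30 (0.0300). The calls of Kdr, Flt1, Nos3 and Gpr4 held in 11, 10, 12 and 12 of 17 alternatives. Without wild-type replicate 3 Kdr was at an edgeR adjusted p of 0.0501. The count of falls depended on single libraries: none was called without AE3-null replicate 4, 1 without AE3-null replicate 3 or wild-type replicate 1, and 2 without AE3-null replicate 1, AE3-null replicate 2, wild-type replicate 2 or wild-type replicate 4.

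The 10 genes were also measured against these 19 markers within each library. The marker mean was itself lower in AE3-null hearts, so subtracting it raises the difference of every gene by construction. Smaller differences than before therefore say nothing on their own. The mean log2 CPM of the markers was 5.83 ± 0.0428 in AE3-null and 5.96 ± 0.0371 in wild-type hearts (SD, n = 4 each), a difference of -0.13. The log2 CPM of Pecam1 minus that mean was 1.74 ± 0.0388 in AE3-null and 1.87 ± 0.0547 in wild-type hearts, and the groups did not overlap (1.70 to 1.78 and 1.795 to 1.92). Relative to the markers, Cdh5 differed by 0.03, Tek by 0.02 and Emcn by 0.0027 on the log2 scale, AE3-null minus wild-type. Egfl7 differed by 0.05, Eng by -0.11 and Cldn5 by -0.33. The median over the 10 genes was -0.07, and it was -0.01 without wild-type replicate 2. These relative values are a description with no test.

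**Figure D4:**
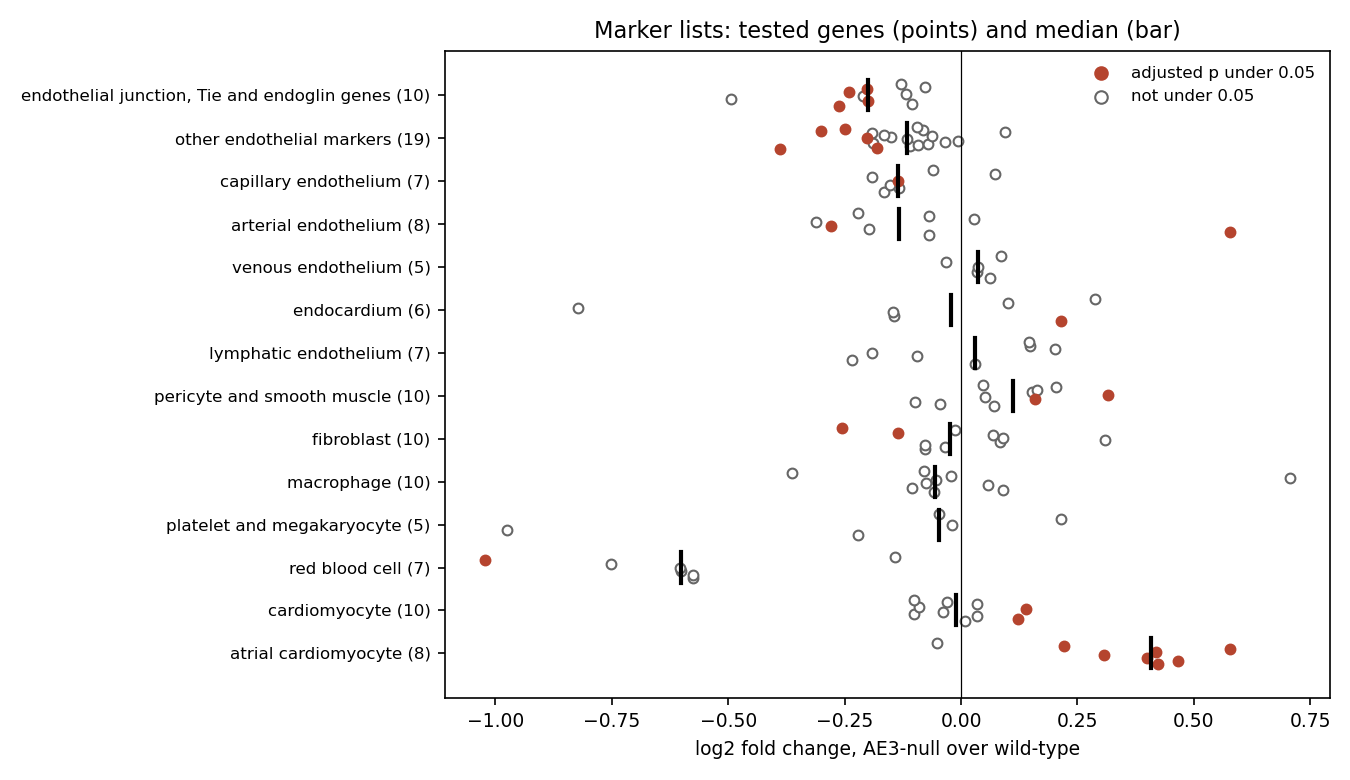
Log2 fold change, AE3-null over wild-type (x axis), of the tested genes of 14 marker lists (rows, with the number tested). Points are genes, filled where the edgeR adjusted p is under 0.05, and black bars are medians. The junction, Tie and endoglin genes have a median of -0.20, the general endothelial markers -0.12, the venous list 0.04 and the atrial muscle list 0.41.

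Endothelial subtypes were examined by lists of their markers. Of 7 tested capillary genes 6 were negative and 1 fell, the fatty acid transporter Cd36 (log2 -0.13, edgeR adjusted p 0.0469), which heart muscle also expresses. Its call was lost in 9 of 17 alternatives. Of 8 arterial genes Efnb2, the arterial ephrin, fell (log2 -0.28, edgeR adjusted p 0.0150), and Gja5, a connexin of arteries and of atrial muscle, rose (log2 0.58, edgeR adjusted p 8.32e-05). The call of Efnb2 was lost without AE3-null replicate 3 (0.0562) or AE3-null replicate 4 (0.0673). In the arterial list 6 of 8 genes were negative, with a median of -0.13, and DESeq2 called 2 lower and 1 higher. The capillary median was also -0.13.

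None of 5 venous genes was called by edgeR, DESeq2 or limma voom, none had an unadjusted p under 0.05, and the median was 0.04, with Tmem252 at 0.09 and Nr2f2 at 0.06. Of 6 endocardial genes Npr3, the clearance receptor for natriuretic peptides, rose (99.4 ± 2.76 CPM in AE3-null and 85.6 ± 2.11 CPM in wild-type hearts, SD, n = 4 each; log2 0.22, edgeR adjusted p 0.00353), and its call held in all 17 alternatives. The endocardial list as a whole had a median of -0.02, with 3 of 6 negative and a range of -0.82 to 0.29. In it 4 genes were at an unadjusted edgeR p under 0.05, and 1 was called lower without AE3-null replicate 3. None of 7 lymphatic genes was called by edgeR, DESeq2 or limma voom (2 at an unadjusted p under 0.05, and 1 called without wild-type replicate 3). The lymphatic median was 0.03, with 3 of 7 negative and a range of -0.23 to 0.20. Flt4, the VEGF-C receptor, had a log2 fold change of -0.19 and Lyve1 one of -0.23 (edgeR adjusted p 0.111 and 0.199). Differences between these subtype lists were not tested.

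Genes that work with the junction proteins were also examined, where 6.47% of all tested genes were called, 3.31% lower and 3.16% higher. Of 14 cytoplasmic partners, among them the catenins and zonula occludens genes, Pard3 fell (log2 -0.18, edgeR adjusted p 0.0335), no gene rose, and the median log2 fold change was 0.0025. Pard3 encodes a polarity scaffold that binds VE-cadherin. Its call was lost in 7 of 17 alternatives, with adjusted p-values up to 0.112 without AE3-null replicate 1. None of 12 other membrane genes of endothelial adhesion was called by edgeR, DESeq2 or limma voom (5 at an unadjusted p under 0.05). In this list 8 of 12 were negative, and the median was -0.07. Nectin2 and F11r, which encodes JAM-A, had log2 fold changes of 0.21 and 0.13 (edgeR adjusted p 0.0816 and 0.0988), and 3 genes of this list were called higher without wild-type replicate 3.

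Of 17 endothelial transcription factors 1 rose and 1 fell, with a median of -0.07. Mef2c, also a core factor of heart muscle, rose (log2 0.15, edgeR adjusted p 0.0285), and Foxo1, which restrains endothelial growth, fell (log2 -0.16, edgeR adjusted p 0.0446). The call of Mef2c was lost in 6 and that of Foxo1 in 12 of 17 alternatives. Mef2c reached 0.122 and Foxo1 0.140 without AE3-null replicate 4. The ETS factor genes Erg and Fli1 had log2 fold changes of -0.07 and -0.07 (edgeR adjusted p 0.570 and 0.530).

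Other cell types moved beside the endothelial genes. Red blood cell markers summed to 2841 to 3953 CPM in AE3-null and 4084 to 6501 CPM in wild-type hearts, without overlap, and their median log2 fold change was -0.60 over 7 tested. Atrial muscle markers summed to 3973 to 4581 CPM in AE3-null and 2996 to 3566 CPM in wild-type hearts, also without overlap. Of 8 of them 7 were called higher, against 3.16% of all tested genes, among them Myl7 (log2 0.47, edgeR adjusted p 0.000167). Gja5, given above with the arterial list, is another of these 7 and the same observation.

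Pericyte and smooth muscle markers summed to 1481 to 1587 CPM in AE3-null and 1378 to 1433 CPM in wild-type hearts. Of 10 of them Myh11 and Abcc9 rose (log2 0.32 and 0.16, edgeR adjusted p 0.00401 and 0.0125). Abcc9 alone averaged 720 ± 28.3 CPM in AE3-null and 644 ± 14.1 CPM in wild-type hearts (SD, n = 4 each), a large part of that sum. It was at an edgeR adjusted p of 0.0590 without AE3-null replicate 4. No marker of any of these lists was at 0 in every library. The part of these lists in the falls of Pecam1, Eng, Esam and Acvrl1 was not tested.

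Platelets and macrophages also make PECAM-1, and platelets make ESAM. Platelet markers summed to 16.8 to 19.7 CPM in AE3-null and 18.4 to 22.1 CPM in wild-type hearts over 8 genes. None of their 5 tested genes was called by edgeR, DESeq2 or limma voom, with 2 at an unadjusted p under 0.05 and 1 called lower without AE3-null replicate 2 or wild-type replicate 3. Macrophage markers summed to 502 to 576 CPM in AE3-null and 518 to 587 CPM in wild-type hearts, and none of 10 was called by edgeR or limma voom (1 at an unadjusted p under 0.05), while DESeq2 called 1 higher and leaving out AE3-null replicate 1 gave 1 called lower. Fibroblast markers summed to 4172 to 4289 and 4046 to 4504 CPM in AE3-null and wild-type hearts. Of 10 of them Dpt and Mfap5 fell (log2 -0.14 and -0.25, edgeR adjusted p 0.0345 and 0.0408), calls lost in 9 and 8 of 17 alternatives. The other fibroblast genes went both ways, with 4 of the 10 positive up to a log2 fold change of 0.31 and a list median of -0.02. DESeq2 and limma voom each called 1 higher, and 3 were called higher without wild-type replicate 3. The part of these 3 lists in the falls of Pecam1, Eng, Esam and Acvrl1 was not tested.

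The 10 genes were also compared in their pattern over the libraries. Centred on each gene's mean, the median log2 CPM of the 10 genes was -0.06, -0.05, -0.10 and -0.14 in AE3-null replicates 1 to 4 and 0.12, 0.12, 0.02 and 0.13 in wild-type replicates 1 to 4. AE3-null replicate 4 was the lowest and wild-type replicate 3 the lowest of its genotype. Of the 10 genes, Acvrl1, Esam and Pecam1 lay nearest to this median profile over the 8 libraries. Their root mean square differences were 0.04, 0.05 and 0.05 on the log2 scale. The profile is built from the 10 genes themselves, so their nearness to it is partly fixed in advance. A flat line lay at 0.102 from that profile. Cdh5 and Egfl7, at 0.0891 and 0.0880, were little nearer than that, and Tie1, at 0.108, and Cldn5, at 0.231, lay further from it than the flat line.

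Among 9046 other genes that averaged 10 CPM or more, the 8 nearest to that profile were Ndrg1, App, Tnks2, Itpkb, Cep120, Stradb, Atl2 and Nbas. Their differences were 0.02 to 0.03 on the log2 scale, and the median gene was at 0.13. Ndrg1, a gene that responds to low oxygen, had a log2 fold change of -0.20 (edgeR adjusted p 0.0187). App, which encodes the amyloid precursor protein, had one of -0.18 (edgeR adjusted p 0.00871). None of the 8 is on the endothelial lists used here. They were ranked by likeness to a profile that already holds the genotype difference, so their fold changes describe the ranking and support nothing further.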

How the data were processed

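RNA-seq libraries of 4 AE3-null and 4 wild-type hearts were used as deposited: read counts per gene, raw and not normalized, in 1 table by Entrez number. The submitters' processing notes name bcl2fastq, CASAVA 1.8, TopHat, DESeq and the genome build mm9, without roles. How reads were assigned to genes, with which annotation and strand setting, is not given in the sources used here. Of 23282 rows 23185 were matched to RefSeq symbols (GRCm38.p6, names only), and 97 were not.

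Genes passing edgeR's filterByExpr (minimum count 10; 14136 genes) were scaled by TMM and compared with the quasi-likelihood F test, robust, with no covariate, and p-values were adjusted by Benjamini-Hochberg over all tested genes. A gene with an adjusted p under 0.05 is called. The standard error is the absolute log2 fold change over the root of F, and 95% intervals use the test's degrees of freedom. Log2 CPM uses a prior count of 2. Ratios were compared by exact permutation of 4 against 4 libraries. The smallest count of a member in a library was 213, for Cldn5 in the shallowest library, AE3-null replicate 2, where counting error weighs most. Between libraries of the same genotype the chi-square per gene was 2.51 to 7.40, and no library was counted as a copy of another.

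The members and lists were chosen with earlier results of these data known. Named genes are all members, up to 4 called genes (smallest p) of each pathway and endothelial list, or 2 as values where none was called, up to 2 called genes of other lists, and the 8 genes nearest in profile. Values of Angpt2, Id1, Id3, Erg and Fli1 were added after they were seen. The call of 1 gene of the red blood cell list is not reported here. The fit was repeated under 17 alternatives: RLE or total-count scaling, no filter, a stricter filter (50 counts in 4 libraries), DESeq2, limma voom, no robust moderation, the 10 most abundant genes left out, a replicate block, and each library left out. The steps were tested on simulated data. Versions were edgeR 4.0.16, DESeq2 1.42.0 and limma 3.58.1 under R 4.3.3.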

Additional observations from a re-analysis of the deposited data

How the results depend on the processing

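The 4 calls among the 10 genes were made with RLE or total-count scaling, with no filter, with the stricter filter and without the 10 most abundant genes. Cldn5 was added, giving 5 calls, by each of DESeq2, limma voom and edgeR with no robust step. With single libraries left out the count ran from 1, without AE3-null replicate 4, to 5, without wild-type replicate 3, and it was 2 without AE3-null replicate 1 or wild-type replicate 4. All 10 genes kept a negative log2 fold change in each of the 17 alternatives. Over all genes the count of calls, 915, ran from 407 without AE3-null replicate 4 to 1727 without wild-type replicate 3, and was 431 when wild-type replicate 4, 569 when AE3-null replicate 3 and 581 when AE3-null replicate 1 was left out. Over the genes of the other lists it ran from 13 to 38 around 28, with 13 without AE3-null replicate 4 or wild-type replicate 4 and 15 without AE3-null replicate 3. The median difference of the 10 genes relative to other endothelial markers, -0.0689, was lowest at -0.0925 when wild-type replicate 3 was left out and highest at -0.0111 when wild-type replicate 2 was. The 5 ratios kept adjusted p-values of 0.214 or more with single libraries left out or with medians in place of means. With total counts alone the median of all genes was 0.0177 and 528 genes were called higher and 361 lower. For the genes named, 846 repeats gave 115 lost calls, 15 gained calls and no reversal. The cause of these shifts was not tested.

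Replicate numbers did not pair the libraries: the correlations of same-numbered deviations were 0.162, -0.0397, 0.0154 and -0.00282, and only number 1 correlated best with its own number. With the replicate block 6 of the 10 genes were called, adding Cldn5 and Tie1, and 1002 genes in all. For the ratios the block leaves too few arrangements for any exact p to reach the threshold, so its result says nothing about them. The annotation behind the counts is unknown and the exon lengths come from another build, which limits levels per kb. The interval of Egfl7 ran from -0.19 to 0.03.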
